A study of Mus musculus with 72 samples.

Results

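Clec7a, Cd33 and Lilrb4a encode receptors on the surface of microglia and other myeloid cells. They were taken by symbol from a table of 1266 genes measured in mouse cortex with the NanoString nCounter Glial and Neuropathology panels, which count fluorescent barcodes hybridised to RNA without amplification. All 3 of the 3 genes were found, each with 1 row and all on the same panel of 757 genes. The 36 mice were 7.5 months old and fell into 3 genotypes of 12 mice, each with 6 females (F) and 6 males (M). M28L_5xFAD mice carried the M28L variant of phospholipase C-gamma-2, P522R_5xFAD mice carried its P522R variant, and 5xFAD mice carried neither. All 36 mice, those without a variant included, carried the 5xFAD transgenes, which are mutant human amyloid precursor protein and presenilin genes known to be driven in neurons by a Thy1 promoter and to cause amyloid plaques. The labels do not say whether a variant was present on 1 or both alleles. The level of the phospholipase gene itself was not analysed here.

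Clec7a, also called dectin-1, is a C-type lectin known for binding fungal beta-glucan. Its tail holds a tyrosine motif that recruits the kinase Syk, and phospholipase C-gamma-2 is among the enzymes switched on below Syk. Cd33 is a Siglec, a lectin that binds sialic acid; in humans its tail recruits the phosphatases encoded by PTPN6 and PTPN11 and dampens such signals, and the mouse tail is known to differ from the human one. Lilrb4a, also called gp49B, is an immunoglobulin-like receptor whose tail carries inhibitory tyrosine motifs that recruit phosphatases. In mouse amyloid models Clec7a and Lilrb4a are known as genes that microglia around plaques express highly.

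RefSeq promoters, build GRCm38.p6, were given for 2 of the 3 genes, Clec7a and Cd33. They are shown because both genes fell in M28L_5xFAD mice, as did Spi1, the gene of the myeloid factor PU.1. The values of Spi1 come with the marker genes, and a part of PU.1 in these falls was not tested. The 250 bases before the start of Clec7a lie on the minus strand at chr6:129472780-129473029, and those before the start of Cd33 lie on the minus strand at chr7:43533172-43533421. A second Clec7a start lies 6 bases away and is not printed. Capitals mark GAGGAA, a core that PU.1 is known to bind, which was searched on both strands (TTCCTC on the other).
Clec7a promoter: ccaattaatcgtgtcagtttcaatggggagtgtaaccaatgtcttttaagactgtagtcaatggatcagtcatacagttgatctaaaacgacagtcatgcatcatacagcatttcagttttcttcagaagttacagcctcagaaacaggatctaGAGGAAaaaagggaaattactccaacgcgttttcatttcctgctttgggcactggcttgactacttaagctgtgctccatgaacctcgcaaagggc
Cd33 promoter: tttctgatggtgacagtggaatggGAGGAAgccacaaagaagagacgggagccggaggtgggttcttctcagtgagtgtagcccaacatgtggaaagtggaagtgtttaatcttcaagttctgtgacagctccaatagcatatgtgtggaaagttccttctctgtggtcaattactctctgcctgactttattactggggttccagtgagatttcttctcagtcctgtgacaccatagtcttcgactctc
Clec7a held 1 match that begins 96 bases before the start, and Cd33 held 1 that begins 226 bases before it. The same letters are in 9289 of all 32851 promoters given, 28.3%. That share was counted over the whole entries, which hold 300 bases for Clec7a and Cd33 and run past the start. A match in both is thus a description of these windows and not a binding site.

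Clec7a differed most between the sexes. Deposited log2 values (lowest, median and highest of 6 mice) were 7.42, 8.06 and 8.59 in M28L_5xFAD females, 7.35, 8.26 and 8.46 in P522R_5xFAD females and 8.46, 8.85 and 9.168 in 5xFAD females. They were 6.31, 6.68 and 7.52 in M28L_5xFAD males, 6.22, 7.70 and 7.80 in P522R_5xFAD males and 7.35, 7.78 and 8.07 in 5xFAD males. The 5xFAD females were the highest group and the M28L_5xFAD males the lowest. In M28L_5xFAD mice, 5 of 6 females lay below every 5xFAD female and 5 of 6 males lay below every 5xFAD male. The order of the group means, from high to low, was 5xFAD F, M28L_5xFAD F, P522R_5xFAD F, 5xFAD M, P522R_5xFAD M and M28L_5xFAD M, and each neighbouring pair in it overlapped.

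Cd33 moved within a narrower range. Its log2 values (lowest, median and highest of 6 mice) were 6.09, 6.35 and 6.55 in M28L_5xFAD females, 6.45, 6.72 and 7.01 in P522R_5xFAD females and 6.29, 6.50 and 6.85 in 5xFAD females. In males they were 6.09, 6.20 and 6.54 in M28L_5xFAD mice, 6.01, 6.62 and 6.91 in P522R_5xFAD mice and 6.52, 6.61 and 6.97 in 5xFAD mice. Both M28L_5xFAD groups were the lowest, and all groups next to each other in the order overlapped. That order was P522R_5xFAD F, 5xFAD M, P522R_5xFAD M, 5xFAD F, M28L_5xFAD F and M28L_5xFAD M.

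Lilrb4a was the gene of the 3 with groups that did not overlap between genotypes. Its log2 values (lowest, median and highest of 6 mice) were 5.38, 5.60 and 6.002 in M28L_5xFAD females, 6.12, 6.70 and 7.25 in P522R_5xFAD females and 6.41, 6.75 and 7.24 in 5xFAD females. In males they were 4.93, 5.27 and 5.71 in M28L_5xFAD mice, 5.89, 6.64 and 7.10 in P522R_5xFAD mice and 5.80, 6.19 and 6.73 in 5xFAD mice. Every M28L_5xFAD mouse lay below every P522R_5xFAD and every 5xFAD mouse of its sex. The share of all genes whose groups do not overlap was not counted. Between P522R_5xFAD and M28L_5xFAD mice limma called 61.0% of all genes in females and 50.0% in males. Between M28L_5xFAD and 5xFAD mice it called 3.87% and 2.05%. From high to low the group means ran 5xFAD F, P522R_5xFAD F, P522R_5xFAD M, 5xFAD M, M28L_5xFAD F and M28L_5xFAD M, with overlap between each neighbouring pair.

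**Figure D1:**
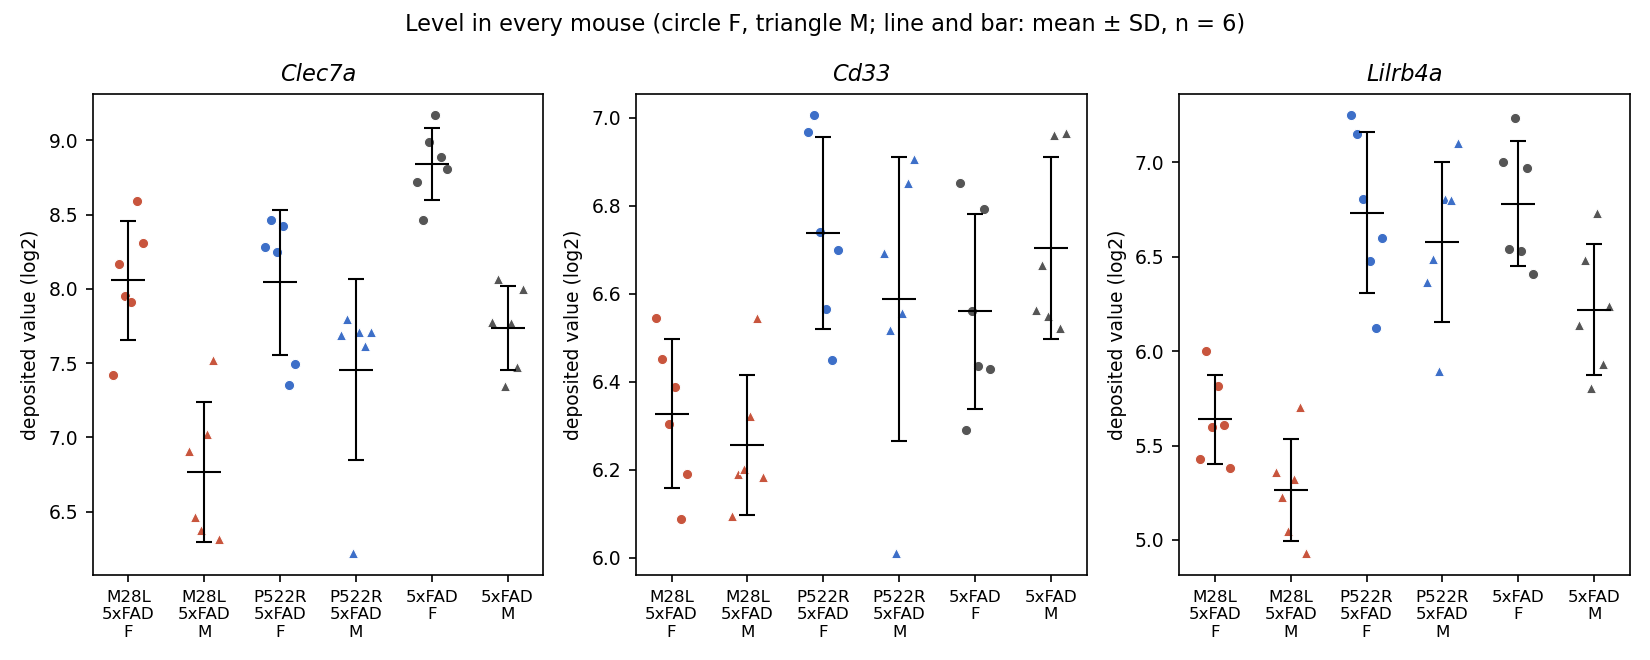
Deposited log2 value of Clec7a, Cd33 and Lilrb4a in each of the 36 mice, by genotype and sex (circles F, triangles M; black line and bar, mean ± SD of 6 mice). All 12 M28L_5xFAD mice lie below the other mice of their sex for Lilrb4a, and the P522R_5xFAD male at 6.22 stands below its group for Clec7a.

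The values rest on modest counts. Recovered barcode counts per mouse ran from 74 to 485 for Clec7a, from 53 to 163 for Cd33 and from 30 to 198 for Lilrb4a. Counting error alone gives an SD of 0.23 on the log2 scale at the mean of 39.5 Lilrb4a counts in M28L_5xFAD females, where the 6 mice had an SD of 0.23. For Clec7a in 5xFAD females it gives 0.074 at a mean of 375.5 counts, against an SD of 0.24 between mice. For Cd33 in M28L_5xFAD females it gives 0.18 at a mean of 62.8 counts, against an SD of 0.17 between mice. Lilrb4a in M28L_5xFAD males, the lowest group of that gene, had an SD of 0.27 between mice, against a counting error of 0.23 at a mean of 40.5 counts. On the 757-gene panel the totals ran from 921565 to 1239109 counts in M28L_5xFAD and 5xFAD females and from 1295271 to 1957325 counts in the other 4 groups.

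M28L_5xFAD mice had less of all 3 receptors than 5xFAD mice. Averaged over the sexes, Clec7a had a mean log2 level of 7.41 in M28L_5xFAD mice and 8.29 in 5xFAD mice (SD within groups 0.44 and 0.26, n = 12 each), a difference of -0.88 ± 0.16 (SE), or 1.84-fold lower (limma, adjusted p = 0.000351). Lilrb4a averaged 5.45 in M28L_5xFAD mice and 6.50 in 5xFAD mice (SD 0.25 and 0.34, n = 12 each), a difference of -1.05 ± 0.13, or 2.07-fold lower (limma, adjusted p = 1.01e-06). Cd33 averaged 6.29 in M28L_5xFAD mice and 6.63 in 5xFAD mice (SD 0.16 and 0.21, n = 12 each), a smaller difference of -0.34 ± 0.091, or 1.27-fold lower (limma, adjusted p = 0.0121). For each of the 3 genes, 12 of 12 M28L_5xFAD mice had a value under the same-sex 5xFAD mean. Of all 1266 genes, 10.3% passed an adjusted p of 0.05 in this comparison and 5.61% passed it downward, beside 3 of 3 receptors called lower. The receptors were chosen with earlier results of these data known and varied together from mouse to mouse. Their count beside that share is thus a description and not a test. By the size of the fall Lilrb4a was in place 6 of 1266 genes, Clec7a in place 9 and Cd33 in place 48.

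The fall in Cd33 is the least firm of the 3. It had an adjusted p of 0.143 with each mouse centred on the housekeeping genes Gusb and Tbp (log2 difference -0.17), 0.0515 without a term for sex and 0.201 with each mouse centred on 19 microglia markers (-0.15), and that of Clec7a had 0.0620 without a term for sex. In bulk cortex, fewer cells of a type and less RNA per cell cannot be told apart. The summed linear level of the 19 microglia markers ran from 15130 to 17440 in M28L_5xFAD females and from 17480 to 24170 in 5xFAD females; in males it ran from 12720 to 19080 in M28L_5xFAD mice and from 15940 to 21110 in 5xFAD mice. Relative to those markers the difference was -0.68 for Clec7a (limma, adjusted p = 1.34e-05) and -0.85 for Lilrb4a (limma, adjusted p = 1.45e-07).

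Within each sex, Lilrb4a and Clec7a passed the test and Cd33 did not. In females, Lilrb4a differed by -1.14 ± 0.19 (limma, adjusted p = 0.000250), Clec7a by -0.78 ± 0.23 (limma, adjusted p = 0.0438) and Cd33 by -0.23 ± 0.13 (limma, adjusted p = 0.319), where 3.87% of all genes passed. In males, Lilrb4a differed by -0.96 ± 0.19 (limma, adjusted p = 0.00230), Clec7a by -0.97 ± 0.23 (limma, adjusted p = 0.0134) and Cd33 by -0.45 ± 0.13 (limma, adjusted p = 0.0578), where 2.05% of all genes passed. The call for Clec7a in females sits at the threshold, since leaving out any of 9 of the 12 mice ended it, with differences from -0.89 to -0.65 over the 12 fits. In males it ended without the M28L_5xFAD male numbered 9 (-0.88, limma, adjusted p = 0.0595), and Cd33 passed without the M28L_5xFAD male numbered 21 (-0.51, limma, adjusted p = 0.0318). The difference between the sexes in the M28L effect was not called for any of the 3 genes (limma, adjusted p = 0.9997 for each), in a comparison where 0 of 1266 genes, 0%, were called by limma and 34 had an unadjusted p under 0.05.

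P522R_5xFAD mice had less Clec7a than 5xFAD mice, while Cd33 and Lilrb4a did not pass the test. Clec7a averaged 7.75 in P522R_5xFAD mice and 8.29 in 5xFAD mice (SD 0.55 and 0.26, n = 12 each), a difference of -0.54 ± 0.16, or 1.45-fold lower (limma, adjusted p = 0.00421). Of the 12 P522R_5xFAD mice, 11 lay below the 5xFAD mean of their sex. Cd33 averaged 6.66 in P522R_5xFAD mice and 6.63 in 5xFAD mice, a difference of 0.03 (95% interval -0.15 to 0.22; limma, adjusted p = 0.775), with the sign turned under both kinds of median centring and under housekeeping centring. Lilrb4a averaged 6.65 in P522R_5xFAD mice and 6.50 in 5xFAD mice, a difference of 0.15 (95% interval -0.12 to 0.43; limma, adjusted p = 0.314). In this comparison 65.4% of all genes passed, so the call of Clec7a is no more than the share of the table, and its difference was in place 90 of 1266 from the lowest. M28L_5xFAD and P522R_5xFAD mice are set against the same 5xFAD mice, so both differences of Clec7a share that reference. The labels name no run or cartridge, so genotype and run cannot be told apart. Totals on the 757-gene panel were 1295271 to 1957325 counts in P522R_5xFAD females and 921565 to 1239109 in M28L_5xFAD and 5xFAD females, without overlap. Male totals overlapped between genotypes, and the part of depth in these differences was not tested.

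By sex, Clec7a passed the test in females and not in males. In females the difference was -0.79 ± 0.23 (limma, adjusted p = 0.00367; 60.2% of all genes passed), with 5 of 6 P522R_5xFAD females below every 5xFAD female. In males it was -0.28 ± 0.23 (95% interval -0.75 to 0.18; limma, adjusted p = 0.314; 50.6% of all genes passed), and -0.035 without the P522R_5xFAD male numbered 27, which had 6.22. The test of the difference between the sexes did not pass (-0.51 ± 0.33; limma, adjusted p = 0.278), where 20.9% of all genes did. Cd33 differed by 0.18 ± 0.13 in females (limma, adjusted p = 0.232) and -0.12 ± 0.13 in males (limma, adjusted p = 0.470). Lilrb4a differed by -0.05 ± 0.19 in females (limma, adjusted p = 0.844) and 0.36 ± 0.19 in males (limma, adjusted p = 0.117). In males it passed without the P522R_5xFAD male numbered 27 (0.49, limma, adjusted p = 0.0275) and without the 5xFAD male numbered 1268 (0.46, limma, adjusted p = 0.0482). The tests between the sexes gave adjusted p = 0.268 for Cd33 and 0.303 for Lilrb4a (limma). Relative to the 19 microglia markers and averaged over the sexes, P522R_5xFAD mice had more Lilrb4a (0.34, limma, adjusted p = 0.00690) and more Cd33 (0.22, limma, adjusted p = 0.0448) than 5xFAD mice, and less Clec7a (-0.35, limma, adjusted p = 0.00542). In females these differences were 0.11, 0.33 and -0.64, and in males 0.57, 0.10 and -0.064. This centring was chosen after seeing the data, and 9 of the 19 markers were themselves called lower in this comparison.

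The 2 variants set apart Lilrb4a most. P522R_5xFAD mice had a mean log2 Lilrb4a level of 6.65 and M28L_5xFAD mice one of 5.45, a difference of 1.20 ± 0.13, or 2.30-fold higher (limma, adjusted p = 1.01e-09), with 12 of 12 P522R_5xFAD mice above the M28L_5xFAD mean of their sex. It was in place 10 of 1266 genes by the size of the rise. Cd33 was higher by 0.37 ± 0.091 (1.29-fold; limma, adjusted p = 0.000555; 11 of 12 mice), but gave an adjusted p of 0.119 under housekeeping centring. Clec7a was higher by 0.34 ± 0.16 and did not pass (95% interval 0.0091 to 0.67; limma, adjusted p = 0.0634; 9 of 12 mice). Of all genes 67.6% passed here, 41.5% upward, against 2 of the 3 receptors. The limits of run and depth given for P522R_5xFAD against 5xFAD mice hold here too.

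By sex, Lilrb4a was higher in P522R_5xFAD than in M28L_5xFAD mice by 1.09 ± 0.19 in females (limma, adjusted p = 7.54e-06; 61.0% of all genes passed) and by 1.31 ± 0.19 in males (limma, adjusted p = 5.13e-07; 50.0% of all genes passed). Cd33 was higher by 0.41 ± 0.13 in females (limma, adjusted p = 0.00623) and by 0.33 ± 0.13 in males (limma, adjusted p = 0.0302), a call in males that ended without any of 7 of the 12 mice (up to adjusted p = 0.0970). For Clec7a the difference was -0.01 ± 0.23 in females (limma, adjusted p = 0.962) and 0.69 ± 0.23 in males (limma, adjusted p = 0.0119), and the difference between these was not tested. Leaving out the P522R_5xFAD male numbered 27 raised the averaged Clec7a difference to 0.46 (limma, adjusted p = 0.00413), and leaving out 1 of the M28L_5xFAD female numbered 20, the M28L_5xFAD male numbered 21 or the P522R_5xFAD females numbered 60 and 8 also brought a call, with 0.39 to 0.41.

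**Figure D2:**
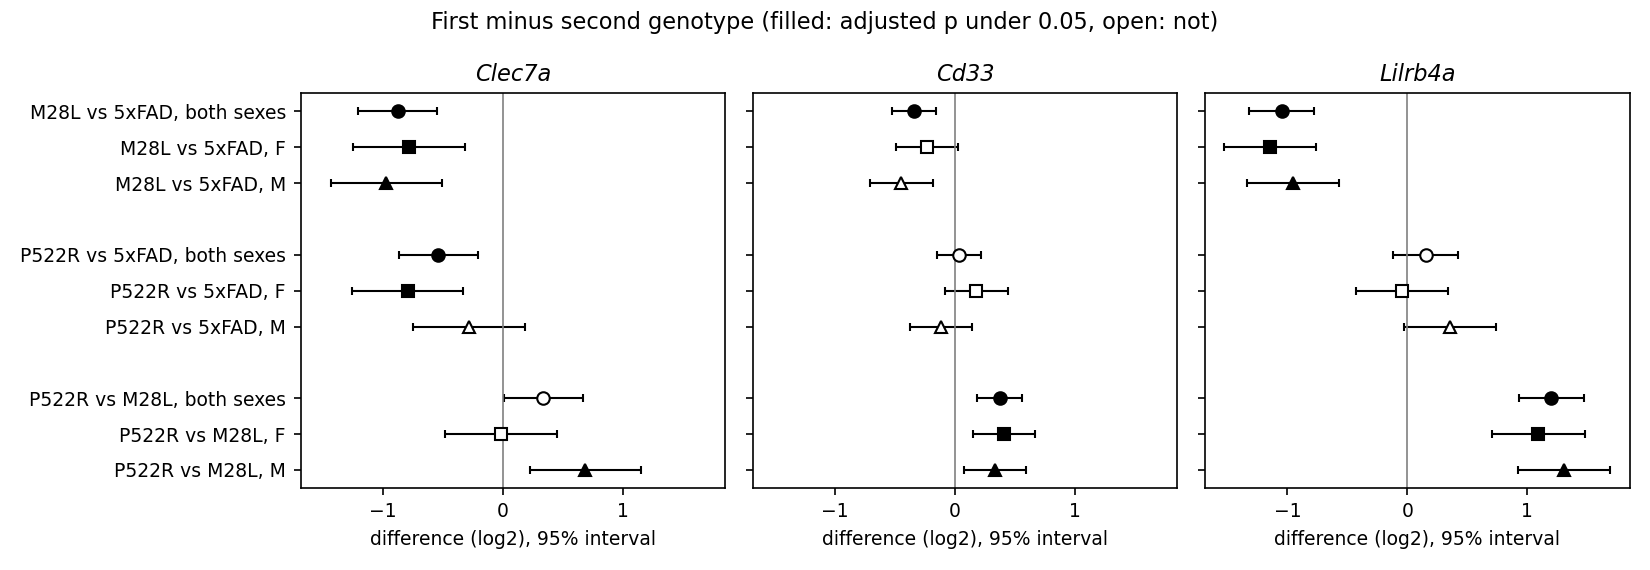
Difference between genotypes in log2 level (first minus second, 95% interval) of the 3 receptors, for both sexes averaged (circles), F (squares) and M (triangles); filled symbols have an adjusted p under 0.05. Lilrb4a lies near -1.05 for M28L_5xFAD against 5xFAD and near 1.20 for P522R_5xFAD against M28L_5xFAD, while the Cd33 differences stay within 0.45 of 0.

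Females had more Clec7a than males, and no other gene of the table had a larger difference in that direction. Averaged over genotypes the mean log2 level was 8.31 in females and 7.32 in males (SD within groups 0.39 and 0.47, n = 18 each), a difference of 0.99 ± 0.13, or 1.99-fold (limma, adjusted p = 1.72e-08). The difference was 1.29 in M28L_5xFAD mice, 0.59 in P522R_5xFAD mice and 1.10 in 5xFAD mice, in place 1, 3 and 1 of 1266 genes. In 5xFAD mice the sexes did not overlap, and the share of all genes without such overlap was not counted. Lilrb4a was also higher in females, 6.38 against 6.02 in males (SD 0.34 and 0.35, n = 18 each), a difference of 0.36 ± 0.11 (limma, adjusted p = 0.00260), in place 16. Cd33 averaged 6.54 in females and 6.52 in males, a difference of 0.03 ± 0.074 (limma, adjusted p = 0.743).

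These values stand against a table that was shifted as a whole. Of all genes 86.4% passed between the sexes, only 2.69% upward, and the median difference of all genes was -0.38, so 2 of the 3 receptors rose where few genes did. With each mouse centred on its median over all genes the female-minus-male difference was 1.32 for Clec7a, 0.69 for Lilrb4a and 0.35 for Cd33, which then passed (limma, adjusted p = 0.000105). With the 19 microglia markers as the centre it was 0.90 for Clec7a, 0.28 for Lilrb4a and -0.06 for Cd33, so the direction for Cd33 hangs on the scaling. The labels name no run or cartridge, so sex and run cannot be told apart. Female libraries of M28L_5xFAD and 5xFAD mice were also the shallow ones, while female and male totals overlapped in P522R_5xFAD mice, and the part of depth in the difference was not tested.

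**Figure D3:**
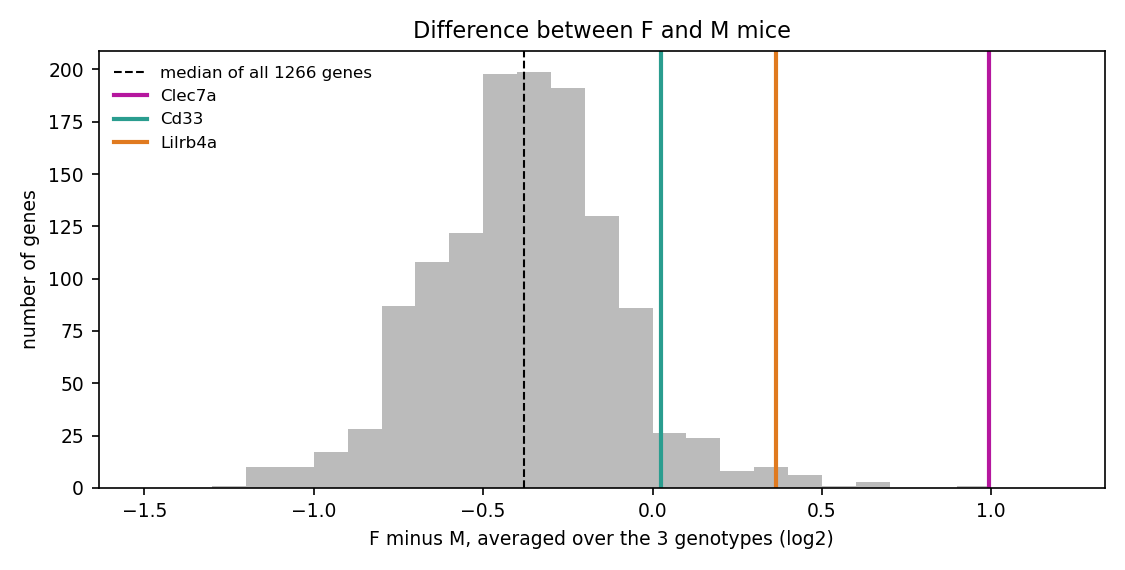
Histogram of the female-minus-male difference in log2 level over 1266 genes, averaged over the 3 genotypes, with its median (dashed, -0.38) and the 3 receptors as vertical lines. Clec7a at 0.99 is at the far right, Lilrb4a at 0.36 and Cd33 at 0.03 lie right of the median.

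**Figure D4:**
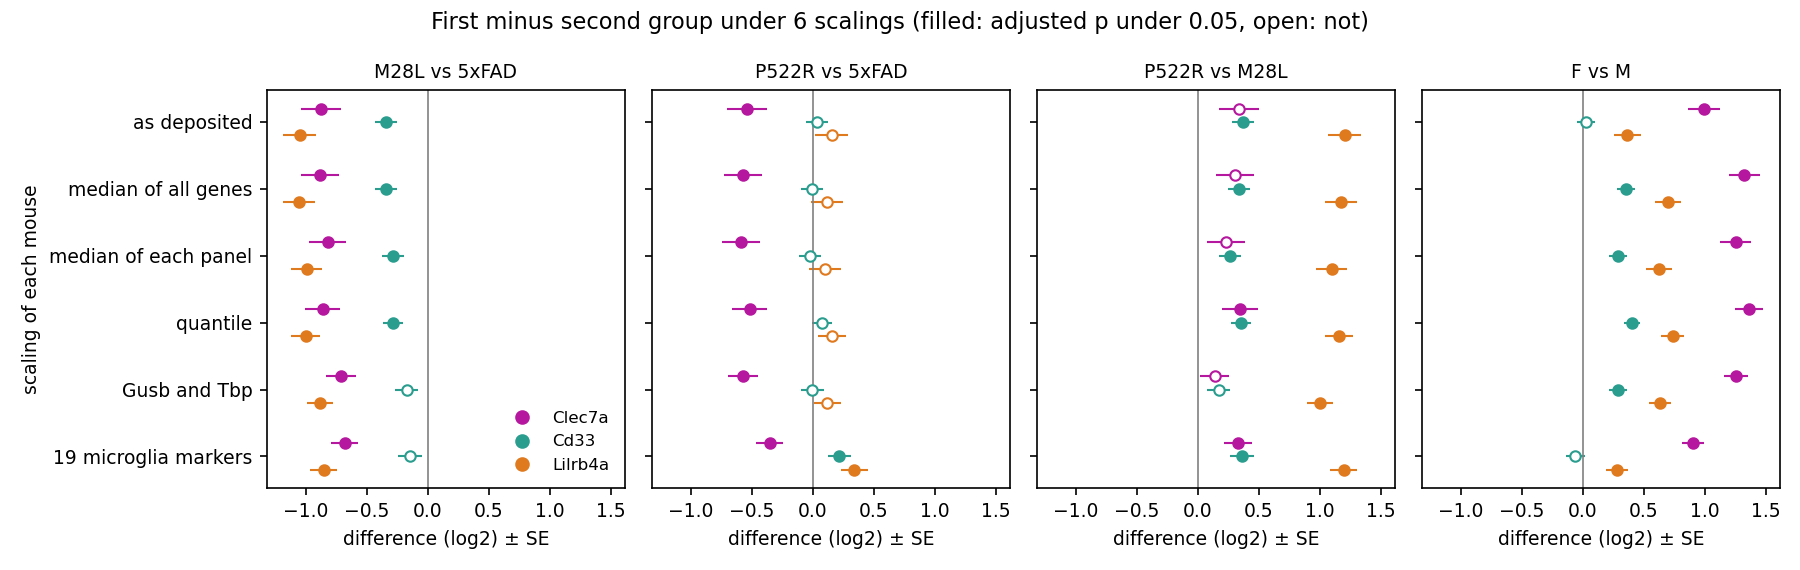
Difference in log2 level ± SE of the 3 receptors (colours) for 3 genotype comparisons and F against M under 6 scalings of each mouse (rows); filled symbols have an adjusted p under 0.05. Clec7a and Lilrb4a stay below 0 for M28L_5xFAD against 5xFAD in every row, and Cd33 changes its call between rows in all 4 comparisons.

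The ratios between the receptors differed in some comparisons of groups and hardly in others. A difference between 2 genes within a mouse is free of any factor common to the panel of that mouse, and only its change between groups can be read. Cd33 minus Lilrb4a averaged 0.69 ± 0.25 in M28L_5xFAD females (range 0.45 to 1.115) and -0.22 ± 0.24 in 5xFAD females (range -0.68 to 0.020), with no overlap (SD, n = 6 each). The share of all gene pairs without such overlap was not counted. In males Cd33 minus Lilrb4a averaged 0.99 ± 0.19 in M28L_5xFAD mice (0.74 to 1.26) and 0.48 ± 0.24 in 5xFAD mice (0.18 to 0.75), with ranges that just overlapped. In P522R_5xFAD mice it was 0.0042 ± 0.21 in females and 0.013 ± 0.21 in males (SD, n = 6 each). Clec7a minus Lilrb4a averaged 1.31 ± 0.37 in P522R_5xFAD females (range 0.90 to 1.95) and 2.06 ± 0.37 in 5xFAD females (1.72 to 2.64); in males it averaged 0.88 ± 0.39 in P522R_5xFAD mice (0.33 to 1.32) and 1.52 ± 0.25 in 5xFAD mice (1.04 to 1.76). These differences are given without a test.

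Around the group means, Cd33 and Lilrb4a varied together from mouse to mouse. After the mean of each of the 6 groups was taken off, Pearson's r over 36 mice was 0.77 for Cd33 with Lilrb4a (Spearman 0.76; 0.70 without the 2 mice farthest from the median of Cd33), 0.62 for Clec7a with Lilrb4a (Spearman 0.48) and 0.47 for Clec7a with Cd33 (Spearman 0.30). The last rests on few mice, since it was 0.20 without the 2 farthest in Clec7a, and within single groups of 6 mice it was -0.87 in M28L_5xFAD females and from 0.16 to 0.84 in the other 5 groups. Within single groups of 6 mice the r of Cd33 with Lilrb4a ran from 0.27 to 0.98. All 3 share a panel and its scaling factor, and the values describe these mice with no test.

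Among 1091 genes with a mean log2 value of 5 or more, the 5 closest to each receptor in this sense were named. For Clec7a these were Lyz2, a lysozyme of macrophages (0.87), Tyrobp, an adaptor that recruits Syk (0.86), Ctss, a lysosomal protease (0.86), Cd9 (0.85) and Gpr34 (0.84). For Cd33 they were Lilrb4a (0.77), Kcnj10, an astrocytic potassium channel (0.72), C3ar1, a complement receptor (0.69), Axl, a receptor kinase (0.68), and Gfap, an astrocyte filament (0.66). For Lilrb4a they were Tgfbr2, a TGF-beta receptor (0.78), Cd33 (0.77), Gfap (0.77), Lpl, a lipase (0.74), and Cd84 (0.73). Clec7a was in place 28 for Lilrb4a and in place 78 for Cd33 among the 1090 other genes.

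**Figure D5:**
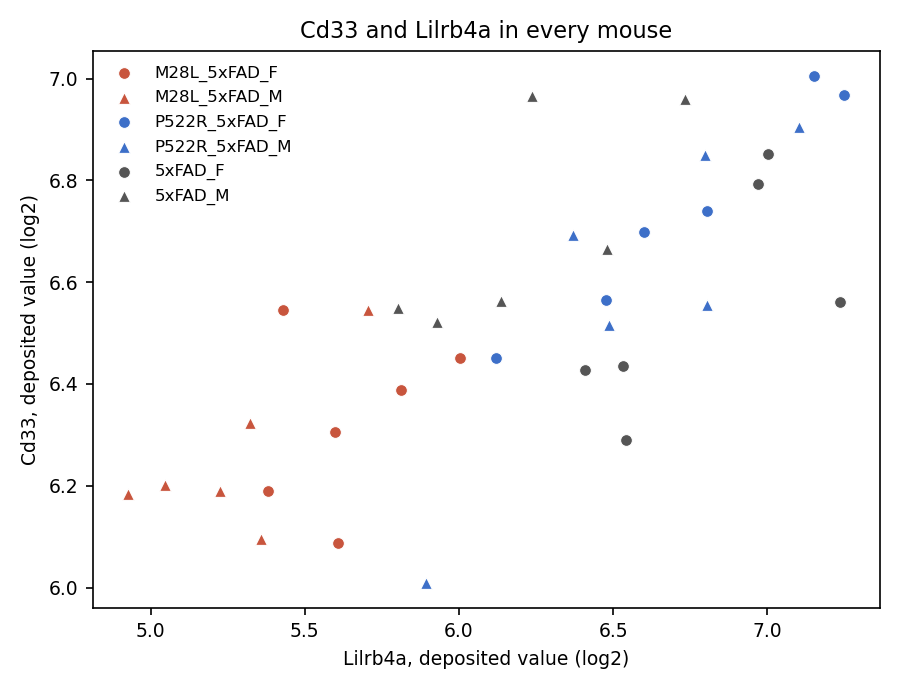
Cd33 against Lilrb4a, deposited log2 values in each of 36 mice (circles F, triangles M; colours, genotypes). The 12 M28L_5xFAD mice lie at the lower left, between 4.93 and 6.002 on the Lilrb4a axis, and the P522R_5xFAD male numbered 27 lies lowest on the Cd33 axis at 6.01.

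Few other genes of the same signalling were on the panels. Of 14 listed activating receptors and adaptors 6 were measured, and in M28L_5xFAD against 5xFAD mice 0 rose and 3 fell (median log2 difference -0.33, against 0.00060 over all genes, of which 10.3% passed). These were Tyrobp (-0.45 ± 0.12; limma, adjusted p = 0.00862), its partner Trem2, a lipid receptor (-0.43 ± 0.12; limma, adjusted p = 0.0227), and the activating Fc receptor Fcgr4 (-0.75 ± 0.22; limma, adjusted p = 0.0262). Of 23 listed inhibitory receptors 4 were measured, Sirpa, Lair1, Cd200r1 and Siglech, and 0 rose and 0 fell (limma; median -0.11), with Lair1 and Sirpa at an unadjusted p of 0.0253 and 0.0325. Of 21 listed genes of Syk and its downstream signalling 5 were measured, and 0 rose and 0 fell (limma; median -0.00043; 0 had an unadjusted p under 0.05). Of 12 phosphatases and inhibitory adaptors 2 were measured: Ptprc, the leukocyte phosphatase CD45, fell (-0.81 ± 0.16; limma, adjusted p = 0.000450), and Ptpn11 differed by 0.040 (limma, adjusted p = 0.542). Of 9 listed ligands 6 were measured, and 1 rose, the matrix protein Fn1 (0.29 ± 0.080; limma, adjusted p = 0.0171), with a median of -0.028 over the list.

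In P522R_5xFAD against 5xFAD mice the same lists held genes called in both directions, as did the table as a whole, where 65.4% of genes passed (40.5% upward and 24.9% downward) with a median of 0.084. Nothing particular to the lists is read from their counts. Of the 6 activating receptors and adaptors 2 rose and 1 fell, with a median of -0.15: Klrk1 (1.03 ± 0.20; limma, adjusted p = 2.57e-05) and Trem1 (1.07 ± 0.28; limma, adjusted p = 0.00104) rose, both at mean log2 levels of 3.07 and below, and Trem2 fell (-0.31 ± 0.12; limma, adjusted p = 0.0309). Klrk1 differed by 1.78 in females (limma, adjusted p = 2.38e-06) and by 0.29 in males (limma, adjusted p = 0.409). Trem2 passed in neither sex alone (limma, adjusted p = 0.141 in females and 0.139 in males). Of the 5 genes of Syk signalling 2 rose, the kinase Prkcd (0.42 ± 0.099; limma, adjusted p = 0.000405) and the NF-kappa-B subunit Rela (0.27 ± 0.054; limma, adjusted p = 5.69e-05), and 1 fell, the kinase subunit Pik3r1 (-0.76 ± 0.074; limma, adjusted p = 8.51e-11), with a median of 0.088. Of the 4 inhibitory receptors 1 rose, Sirpa (0.14 ± 0.052; limma, adjusted p = 0.0187), with a median of -0.0086. By sex, Sirpa differed by 0.40 in females (limma, adjusted p = 2.30e-05) and by -0.12 in males (limma, adjusted p = 0.168). Ptpn11 rose (0.18 ± 0.036; limma, adjusted p = 3.51e-05) and Ptprc fell (-0.44 ± 0.16; limma, adjusted p = 0.0134). The rise of Ptpn11 was one of females (0.48, limma, adjusted p = 1.86e-09), and in males the difference was -0.12. In males 0 of these 2 genes rose and 1 fell, Ptpn11, while Ptprc (-0.37) did not pass. Of the 6 ligands 2 rose and 2 fell, with Fn1 up (0.99 ± 0.080; limma, adjusted p = 1.20e-12) and Apoe down (-0.38 ± 0.076; limma, adjusted p = 3.91e-05), and a median of 0.16. Apoe differed by -0.14 in females (limma, adjusted p = 0.271) and by -0.63 in males (limma, adjusted p = 8.05e-06). In P522R_5xFAD against M28L_5xFAD mice, 1 activating receptor or adaptor rose and 0 fell, 2 genes of Syk signalling rose and 2 fell, 1 inhibitory receptor rose and 0 fell, both phosphatase genes rose, and 4 ligands rose and 2 fell. Of all genes 67.6% passed in that comparison, 41.5% upward and 26.1% downward, and nothing particular to these lists is read from the counts. The counts are of averages over the sexes. Ptpn11 was higher in females (0.43, limma, adjusted p = 1.18e-08) and lower in males (-0.14, limma, adjusted p = 0.0212). Ptprc passed in neither sex alone (limma, adjusted p = 0.0596 in females and 0.324 in males). Sirpa, the inhibitory receptor that rose, differed by 0.57 in females (limma, adjusted p = 5.69e-08) and by -0.05 in males (limma, adjusted p = 0.567).

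Markers of cell types give the setting of these values. All 19 microglia markers were measured, with at least 27 counts in every mouse; 1 rose and 5 fell in M28L_5xFAD against 5xFAD mice (median -0.20), 2 rose and 9 fell in P522R_5xFAD against 5xFAD mice (median -0.19), and 6 rose and 3 fell in females against males (median 0.11). Over all genes the shares called in these comparisons were 10.3%, 65.4% and 86.4%. Upward they were 4.66%, 40.5% and 2.69%, and downward 5.61%, 24.9% and 83.7%. Spi1 differed by -0.33 ± 0.077 in M28L_5xFAD against 5xFAD mice (limma, adjusted p = 0.00416) and by -0.17 ± 0.077 in P522R_5xFAD against 5xFAD mice (limma, adjusted p = 0.0486). Of other myeloid cells that could carry these receptors, 2 of 8 border macrophage markers, Cd163 and Stab1, 1 of 7 monocyte markers and 0 of 15 neutrophil and dendritic cell markers were measured. The lowest count in a mouse was 8 for the border macrophage markers and 4 for the monocyte marker, which averaged 14.8. No background was set, so the presence of these cells is not read from such counts. On the linear scale the border macrophage markers summed to between 32.6 and 130.6 in M28L_5xFAD mice and between 63.9 and 127.6 in P522R_5xFAD mice. In 5xFAD mice their sum ran from 35.2 to 122.8. Averaged over the sexes, Cd163 (0.80 ± 0.17) and Stab1 (0.40 ± 0.13) rose in P522R_5xFAD against 5xFAD mice (limma, adjusted p = 0.000127 and 0.00878). In females both passed (1.10 and 0.93, limma, adjusted p = 0.000253 and 8.69e-05). In males neither did (0.49 and -0.13, limma, adjusted p = 0.0875 and 0.582). Of 12 lymphocyte markers measured, 11 averaged under 20 counts; 9 rose in P522R_5xFAD against 5xFAD mice (median 0.74) and 0 passed in M28L_5xFAD against 5xFAD mice (limma; 0 had an unadjusted p under 0.05), where 65.4% and 10.3% of all genes passed. The part of these cells in the levels of the 3 receptors was not tested. The cortex label was met by neuronal, astrocyte and oligodendrocyte markers, with at least 388, 273 and 197 counts per marker in every mouse.

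Lilrb4a has a close relative next to it in the RefSeq gene table, Lilr4b, which was not measured. Whether the Lilrb4a probe tells both transcripts apart is not given, so its values may hold both.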

How the data were processed

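Cortex RNA came from a PureLink extraction and went through the maker's nCounter procedure, per the labels' protocols. The deposited table holds normalized log2 values, in which each mouse has 1 column that joins both panels; how the authors normalized them is not stated. Of 1517 rows, 251 named no gene, which left 1266 genes. On the linear scale 100.00% of values came out whole, within 0.05 counts, when divided by 1 of 2 steps found in each mouse, which gave back the counts (237563 to 1957325 per mouse and panel) and panels of 757 and 509 genes. Control probes were not used here, so no background was set.

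The tests used limma 3.58.1 (R 4.3.3) with 1 mean per genotype and sex, all 36 mice sharing a spread, eBayes with a trend, two-sided, Benjamini-Hochberg over 1266 genes, threshold 0.05. The fit was tested on simulated data. Replicates are separate animals by their numbers, except that a pair of M28L_5xFAD females share the number 14 and were kept apart. Same-index mice did not deviate together (correlations from -0.48 to 0.070 over 16 pairs). Alternatives were other scalings, a low-value filter, a pseudocount of 20, other variance models and sets of mice; centring on microglia markers was chosen after seeing the data. Named are the 3 receptors, the 5 genes closest to each, and up to 4 genes of a list by smallest p. The receptors and lists were chosen with earlier results of these data known. Sequences are from RefSeq, GRCm38.p6.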

Additional observations from a re-analysis of the deposited data

Results flagged for a closer look

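A mouse stood apart from its group for 1 of the 18 sets of 6 values, as about 1 in 20 such sets does by chance. In P522R_5xFAD males, Clec7a had a log2 value of 6.22 (74 counts) in the mouse numbered 27, and the next lowest of the 6 had 7.62, so that the gap took 0.886 of the whole range. The same mouse had the lowest value of its group for Cd33 (6.01) and Lilrb4a (5.89) and the lowest mean over the 19 microglia markers (8.38), with 1683391 counts on the 757-gene panel.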

How the results depend on the processing

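Of 1062 values recomputed under other settings, 986 kept their direction and their side of the threshold, or for counts of genes stayed within 1.5 times. The fall of Lilrb4a (M28L_5xFAD against 5xFAD) and its rise (P522R_5xFAD against M28L_5xFAD) were called under all 13 settings and in each of the 24 fits without a mouse, with differences of -1.17 to -0.80 and 0.92 to 1.34 over the settings. The cause of the changes below was not tested.

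With no term for sex, M28L_5xFAD against 5xFAD gave -0.88 for Clec7a (adjusted p = 0.0620), -0.34 for Cd33 (0.0515) and 30 called genes (1 higher) in place of 130, and P522R_5xFAD against 5xFAD gave -0.54 for Clec7a (0.0847). Housekeeping centring, on Gusb and Tbp, moved the median of all genes to 0.17 for M28L_5xFAD against 5xFAD, with 306 called (276 higher and 30 lower, in place of 59 and 71), and to -0.10 for P522R_5xFAD against M28L_5xFAD, with 183 higher and 483 lower in place of 525 and 331. Under it Cd33 gave -0.17 (M28L_5xFAD against 5xFAD), 0.17 (P522R_5xFAD against M28L_5xFAD) and -0.0041 (P522R_5xFAD against 5xFAD). The last was also turned by median centring (-0.0050), which moved all its calls to 437 higher and 366 lower, and by centring within panels (-0.021).

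Microglia marker centring gave 342 called (313 higher) and -0.15 for Cd33 in M28L_5xFAD against 5xFAD. In P522R_5xFAD against 5xFAD it gave 688 higher and 142 lower in place of 513 and 315, 0.22 for Cd33 and 0.34 for Lilrb4a; within sex it turned Lilrb4a in females (0.11) and Cd33 in males (0.10). In P522R_5xFAD against M28L_5xFAD it gave 0.33 for Clec7a, which quantile normalization also brought past the threshold (0.34). Between females and males, Cd33 was 0.35 with median centring, 0.28 within panels, 0.40 with quantile normalization, 0.29 with housekeeping centring and -0.064 with microglia markers.

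Of the within-sex calls, that of Clec7a in females (M28L_5xFAD against 5xFAD) also ended with centring within panels (adjusted p = 0.0516), without the trend (0.0643), with a robust trend (0.0547) and with the mice numbered 14 as their mean (0.0703). Those of Cd33 (P522R_5xFAD against M28L_5xFAD) ended with centring within panels (0.0574 in females and 0.0959 in males) and housekeeping centring (0.254 and 0.378).

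Leaving out a mouse gave 0.27 to 0.46 for Clec7a in P522R_5xFAD against M28L_5xFAD, -0.00053 to 0.089 for Cd33 in P522R_5xFAD against 5xFAD and -0.013 to 0.046 for Cd33 between females and males. Within sex the ranges that crossed 0 were -0.14 to 0.13 for Clec7a in P522R_5xFAD against M28L_5xFAD females, -0.15 to 0.075 for Lilrb4a in P522R_5xFAD against 5xFAD females, and -0.18 to 9.7e-06 for Cd33 in P522R_5xFAD against 5xFAD males.

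With the index number of the labels as a replicate block, M28L_5xFAD against 5xFAD gave 97 called genes in place of 130, P522R_5xFAD against 5xFAD 765 in place of 828, and Lilrb4a in P522R_5xFAD against 5xFAD females 0.016. It ended the within-sex calls of Clec7a in both sexes (adjusted p = 0.284 in females and 0.0612 in males) and of Lilrb4a in males (0.0913) for M28L_5xFAD against 5xFAD, and of Cd33 in males (0.177) for P522R_5xFAD against M28L_5xFAD. Deviations of same-index mice correlated from -0.48 to 0.070 over 16 pairs, and whether an index marks a shared run or litter was not tested. Depth limits Lilrb4a in M28L_5xFAD mice, with 30 to 52 counts.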
